A study of Mus musculus with 46 samples.

Results

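D9T- cells were fibroblast-derived cells on day 9 of reprogramming that had lost the surface protein Thy-1, and 3 of the 46 libraries of the study profiled them for H3K4me3 (histone H3 trimethylated at lysine 4), H3K36me3 (the same at lysine 36) and the histone variant H3.3. A peak list came with 30 of the 46 libraries. Each of 22367 protein-coding genes of GENCODE vM1 (mouse build mm9) was sorted by which of the 3 marks it carried. A gene carried a mark when peaks of that library covered at least 500 bp of its window, from 1000 bp before the annotated start to the annotated end. All the cells came from mouse embryonic fibroblasts (MEFs) with Oct4 tagged by GFP. D0 were these MEFs at the start of the conversion, and the labels do not say whether virus had been added. D9T- cells had been infected with pMXs retroviruses for Sox2, Klf4, Oct4 and c-Myc and were sorted on day 9 as Thy-1-negative. The iPSCs were the induced pluripotent stem cells at the end of the conversion. There was 1 library per mark and stage, with no replicates, so no difference between stages was tested and no spread between replicates exists. The 95% Wilson intervals in brackets cover counting error only. The cells were profiled in bulk, so that fewer cells with a mark and less mark per cell cannot be told apart.

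H3.3 is the H3 variant that is placed into chromatin outside DNA replication. The chaperone HIRA places it at active promoters, enhancers and transcribed gene bodies. DAXX-ATRX, the other chaperone, places it mainly at telomeres and in heterochromatin. H3K4me3 marks the start of active genes and of many silent CpG-rich developmental genes. H3K36me3 is written behind elongating RNA polymerase II by SETD2 and fills the bodies of transcribed genes towards their ends. Read together, the marks separate a gene whose start is open from one that is also being transcribed through.

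The sequences below are shown because the combinations of marks differed in CpG content at the gene start. Each is the 250 bp before the annotated start on mm9, read 5′ to 3′ on the strand of the gene, with CpG dinucleotides in capitals. Mat2a (chr6:72389553-72389802, minus strand) carried all 3 marks, Thumpd1 (chr7:126864280-126864529, minus strand) carried H3K4me3 and H3K36me3 without H3.3, and Foxd1 (chr13:99123950-99124199, plus strand) carried H3K4me3 only. Lrrn4cl (chr19:8925025-8925274, plus strand) carried H3.3 only, and Zfp958 (chr8:4625590-4625839, plus strand) H3K36me3 only. In Zfp958, H3K36me3 peaks covered the whole 2.001 kb around the annotated start. Whether transcription begins at that start was not tested, so its sequence is not shown to be a promoter. Col3a1 (chr1:45368133-45368382, plus strand), a fibroblast collagen gene, carried all 3 marks with no CpG in the 250 bp before the start. Nanog (chr6:122657257-122657506, plus strand), a core pluripotency gene, carried H3K4me3 only.
Mat2a: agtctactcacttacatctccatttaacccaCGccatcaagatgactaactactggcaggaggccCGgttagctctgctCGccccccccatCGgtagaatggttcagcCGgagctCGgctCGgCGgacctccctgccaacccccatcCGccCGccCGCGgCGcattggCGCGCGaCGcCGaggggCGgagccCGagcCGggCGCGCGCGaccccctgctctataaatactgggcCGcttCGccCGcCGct
Thumpd1: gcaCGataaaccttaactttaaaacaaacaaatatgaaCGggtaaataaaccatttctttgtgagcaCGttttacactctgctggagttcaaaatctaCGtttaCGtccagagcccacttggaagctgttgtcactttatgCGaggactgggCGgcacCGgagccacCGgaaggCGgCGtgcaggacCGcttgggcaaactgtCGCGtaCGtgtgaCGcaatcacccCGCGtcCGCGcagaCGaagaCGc
Foxd1: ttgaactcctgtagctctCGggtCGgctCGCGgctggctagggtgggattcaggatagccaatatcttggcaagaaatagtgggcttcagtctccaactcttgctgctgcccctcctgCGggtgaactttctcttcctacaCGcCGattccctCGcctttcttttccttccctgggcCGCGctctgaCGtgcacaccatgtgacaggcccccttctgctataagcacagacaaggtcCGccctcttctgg
Lrrn4cl: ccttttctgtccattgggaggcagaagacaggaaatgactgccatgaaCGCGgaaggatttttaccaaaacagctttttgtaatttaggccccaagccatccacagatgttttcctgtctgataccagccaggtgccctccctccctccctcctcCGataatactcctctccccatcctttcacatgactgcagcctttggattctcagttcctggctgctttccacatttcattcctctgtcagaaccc
Zfp958: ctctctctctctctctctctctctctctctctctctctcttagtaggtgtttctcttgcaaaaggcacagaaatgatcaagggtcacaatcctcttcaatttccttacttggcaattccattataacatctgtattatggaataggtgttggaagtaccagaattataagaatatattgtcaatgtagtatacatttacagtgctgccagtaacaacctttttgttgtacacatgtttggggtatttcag
Col3a1: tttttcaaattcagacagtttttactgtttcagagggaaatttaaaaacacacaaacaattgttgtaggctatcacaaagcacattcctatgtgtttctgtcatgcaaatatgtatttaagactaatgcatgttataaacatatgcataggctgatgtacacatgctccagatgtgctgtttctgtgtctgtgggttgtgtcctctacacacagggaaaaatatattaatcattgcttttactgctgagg
Nanog: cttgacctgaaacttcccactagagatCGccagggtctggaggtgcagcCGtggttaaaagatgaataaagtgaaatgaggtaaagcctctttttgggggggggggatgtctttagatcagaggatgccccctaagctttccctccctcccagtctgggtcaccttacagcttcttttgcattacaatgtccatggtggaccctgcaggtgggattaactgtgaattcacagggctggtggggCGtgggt
The 250 bp held 29 CpGs in Mat2a, 22 in Thumpd1, 12 in Foxd1, 3 in Lrrn4cl, 0 in Zfp958, 0 in Col3a1 and 3 in Nanog. Of these genes with H3K4me3, Mat2a, Thumpd1 and Foxd1 were thus rich in CpG before the start, and Col3a1 and Nanog poor.

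The 3 D9T- lists differed in how the tags were spread. The H3.3 list held 68309 peaks over 96.0 Mb (3.62% of the genome) with 14.8% of 32.4 M tags inside them. The H3K4me3 list held 34441 peaks over 56.3 Mb with 23.8% of 30.6 M tags, and the H3K36me3 list 50454 peaks over 167 Mb with 42.4% of 22.4 M tags. H3K36me3 formed the longest domains, with 22.4% of its peaks at 4 kb or more and the longest at 103 kb. All 3 were called against the same input library, at a minimum enrichment of 2 for H3.3 peaks and 4 for peaks of the other marks. The iPSC H3K36me3 list stood apart from the rest: it covered 19.6 Mb and held 2.88% of its tags, against 153 Mb and 31.3% in D0, and an iPSC value that includes H3K36me3 is to be read with this coverage. Over all genes with a peak at either stage, H3K36me3 was higher in D9T- than in iPSCs in 93.3%. Counts of the main lists in iPSCs are therefore also given for H3.3 with H3K4me3 alone, an alternative added after the data were seen. The iPSC H3K4me3 list was also lower, with 12.7% of its tags in peaks against 23.8% in D9T- and 30.4% in D0. H3K4me3 was higher in D9T- than in iPSCs in 85.7% of genes with a peak at either stage. An iPSC H3K4me3 density is to be read with this share.

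The commonest state in D9T- was to carry all 3 marks. All 3 were found on 9202 genes, or 41.1% of protein-coding genes (40.5 to 41.8%). No mark was found on 6297 genes (28.2%). H3.3 and H3K4me3 without H3K36me3 were found on 2613 genes (11.7%), H3K4me3 only on 2220 (9.93%), and H3K4me3 and H3K36me3 without H3.3 on 1092 (4.88%). The remaining combinations were rare, with H3.3 only on 399 genes (1.78%), H3K36me3 only on 345 (1.54%), and H3.3 and H3K36me3 without H3K4me3 on 199 (0.89%). By mark, H3K4me3 was carried by 67.6% of genes, H3.3 by 55.5% and H3K36me3 by 48.5%.

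**Figure D1:**
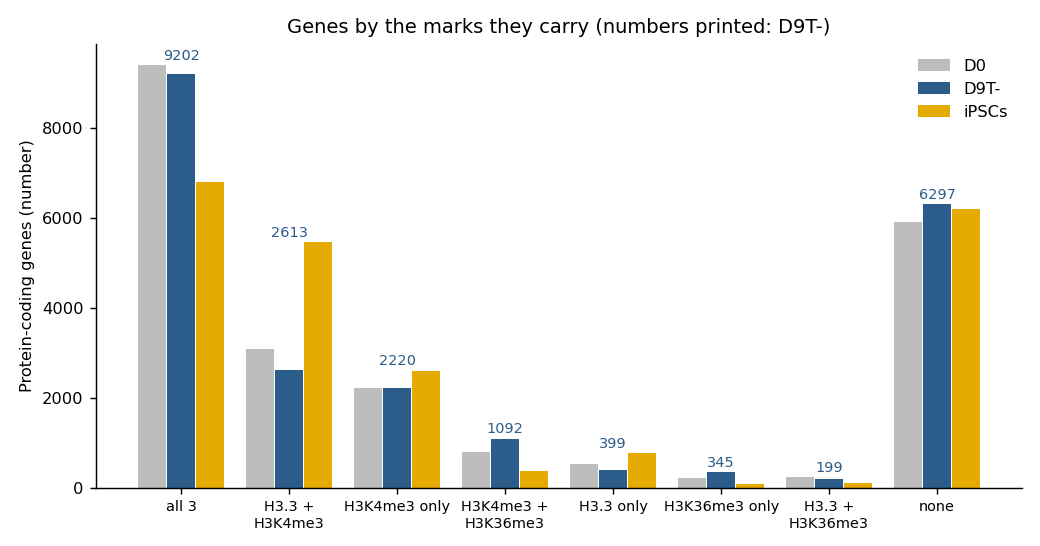
Number of protein-coding genes (y axis) with each combination of marks (x axis) in D0, D9T- and iPSCs, 1 library per mark and stage. All 3 marks together formed the largest class in D9T- (9202 genes) and no mark the next (6297), while H3.3 with H3K36me3 and no H3K4me3 was found on 199 genes.

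The marks were mostly found on the same genes. Of the genes with H3K36me3, 94.98% (94.6 to 95.4%) also carried H3K4me3 and 86.7% carried H3.3. Of the genes with H3.3, 95.2% carried H3K4me3 and 75.7% H3K36me3. H3K4me3 was the mark most often found without the others, since 78.1% of its genes carried H3.3 and 68.1% H3K36me3. The stricter fold limit of the other lists, when set for H3.3 too, left 17937 H3.3 peaks and gave other class sizes. All 3 marks were then found on 5556 genes, H3K4me3 and H3K36me3 without H3.3 on 4738, and H3K4me3 only on 3820. The size of the class without H3.3 therefore depended on the limit at which H3.3 was called.

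Gene length and CpG content at the start differed between the classes. Genes with all 3 marks had a median length of 28.5 kb and 75.3% (74.4 to 76.1%) had a CpG-rich start, against 15.4 kb and 44.2% over all genes. A start was called CpG-rich when the 1000 bp around it had a ratio of observed to expected CpG of at least 0.6 and a GC content of at least 50%. CpG-rich starts were found in 62.5% of genes with H3K4me3 and H3K36me3 without H3.3, 48.5% of genes with H3.3 and H3K4me3, and 40.5% of genes with H3K4me3 only. They were found in 1.01 to 3.48% of the genes of the 3 classes that lacked H3K4me3 but carried another mark, and in 1.37% of genes with no mark. The unmarked genes were short, with a median of 3.79 kb. Length itself bears on the call, since a longer window can hold more peaks: all 3 marks were found on 8.62% of the 5592 shortest genes (up to 4.70 kb) and 61.3% of the 5592 longest (from 42.5 kb).

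The genes that led each class, by the lowest rank among the marks they carried, included housekeeping and stress genes. Densities below are the peak score, in tags per 10 M tags of the library, per kb of gene window. Mat2a, the enzyme that makes S-adenosylmethionine, led the genes with all 3 marks with an H3.3 density of 25.5, H3K4me3 at 53.0 and H3K36me3 at 31.6. Cdkn1a, the cell-cycle inhibitor p21, and Eef2, a translation elongation factor, came next, with H3.3 densities of 21.1 and 23.9. Ubb (ubiquitin), Pfn1 (an actin-binding protein) and Gadd45b (a stress-response gene) led H3.3 with H3K4me3, with H3K4me3 densities of 87.5, 67.0 and 63.7. All 3 are short genes, and the H3.3 density of Ubb was 21.0 against 8.59 in D0.

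Zfp574, a zinc-finger gene, Cxxc1, which encodes the CpG-binding subunit of the H3K4 methyltransferase SET1, and Thumpd1 led the genes with H3K4me3 and H3K36me3 without H3.3. Their H3K4me3 densities were 24.2, 19.6 and 24.9 and their H3K36me3 densities 19.7, 22.8 and 19.2, with no H3.3 peak in D9T-. In D0 each had an H3.3 density of 0.891 to 2.22. Foxd1, a forkhead factor of stromal cells, Adm (the peptide hormone adrenomedullin) and Fam96b led H3K4me3 only, at 55.7, 49.4 and 46.0. Foxd1 also had an H3.3 density of 2.37 from peaks that covered under 500 bp, so it did not count as carrying H3.3.

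Among the classes without H3K4me3, Zfp958 and Zfp709, both zinc-finger genes, and D3Ertd254e led H3K36me3 only, at 66.1, 58.6 and 57.3, with no peak of the other marks. Their D0 densities were 62.1, 44.7 and 48.8, so that each of the 3 carried H3K36me3 only at both stages. Lrrn4cl, Hmha1 and Cga led H3.3 only, at 12.8, 7.18 and 7.01. Cga encodes the common subunit of the glycoprotein hormones and had no H3.3 peak in D0. Srcap and Rnf4 led H3.3 with H3K36me3 together with the delivered factor Pou5f1, which is described with the other factors below. Srcap (a chromatin remodeller) had densities of 7.13 for H3.3 and 30.4 for H3K36me3, and Rnf4 (a ubiquitin ligase) of 6.86 and 38.8. Neither had a H3K4me3 peak in its annotated window at any of the 3 stages. The annotated genes were 5.88 and 7.72 kb long, and H3K36me3 covered the whole 2.001 kb around both annotated starts in D9T-. Whether transcription begins at these starts was not tested, so a H3K4me3 peak at a start outside the window would be missed.

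Gene families, chosen after their values were seen, fell into different classes. Of 371 genes named Zfp, 204 carried all 3 marks, 88 carried H3K4me3 and H3K36me3 without H3.3 and 29 carried H3K36me3 only, against 4.88% and 1.54% of all genes for the last 2 classes. Of 67 replication-dependent histone genes, which have a median length of 0.53 kb, 61 carried H3.3 and H3K4me3 without H3K36me3 (91.0%, against 11.7% of all genes). Of 76 ribosomal protein genes, 65 carried all 3 marks (85.5%, against 41.1%). Of 43 genes of mitochondrial complex I named Nduf, 27 carried all 3 (62.8%) and 11 carried H3K4me3 and H3K36me3 without H3.3 (25.6%, against 4.88%). Of 40 Hox genes, 19 carried H3.3 and H3K4me3 without H3K36me3 (47.5%, against 11.7%) and 14 H3K4me3 only (35.0%, against 9.93%). Of 1113 olfactory receptor genes, which are silent outside the nose, 1105 carried no mark (99.3%, against 28.2%). Members of a family share sequence and often lie in clusters, so their peaks are not independent, and reads that mapped to more than 1 locus had been removed.

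Genes of chromosome X carried H3.3 less often than autosomal genes. In D9T-, 23.9% of 932 X-linked genes carried H3.3 against 56.9% of autosomal genes, while H3K4me3 was carried by 52.5% against 68.3% and H3K36me3 by 32.9% against 49.2%. H3K4me3 and H3K36me3 without H3.3 were found on 120 X-linked genes, or 12.9%, against 4.52% of autosomal genes. The X share with H3.3 was 18.6% in D0 and 12.9% in iPSCs. The labels do not give the sex of the cells. Whether the number of X copies changed how often peaks were called was not tested.

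Along the gene, H3K4me3 lay at the start, H3K36me3 in the body towards the end, and H3.3 in both. The shares below are of carrying genes of 5 kb or more with at least 500 bp under peaks in the named part. Within 1000 bp of the start the share was 90.5% (90.0 to 91.0%) for H3K4me3 and 55.1% (54.1 to 56.0%) for H3.3. For H3K36me3 it was 2.19% (1.92 to 2.498%). At the gene end the order was the other way round, with 67.0% for H3K36me3, 36.8% for H3.3 and 7.87% for H3K4me3. The inner part of the gene, more than 2 kb from both ends, held H3K36me3 in 95.1% of its genes, H3.3 in 80.7% and H3K4me3 in 49.3%. The same shares at the start in D0 were 90.2%, 54.8% and 2.11%, close to those of D9T-.

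Among genes with all 3 marks whose window touched no other gene (5336 genes of 5 kb or more), the base pairs inside H3K4me3 peaks made up 68.7% of the 1 kb before the start and 56.0% of the first of 10 equal parts of the gene, and 4.60% of the fifth part. H3K36me3 covered 0.221% of the 1 kb before the start, 5.22% of the first part, 46.0% of the fifth and 62.4% of the last. H3.3 covered 40.9% of the 1 kb before the start, 22.6% of the first part, 15.1% of the sixth and 22.3% of the last, and 28.2% of the 1 kb past the end. H3.3 thus had a high point at each end of the gene, while H3K4me3 and H3K36me3 had 1 high point each.

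**Figure D2:**
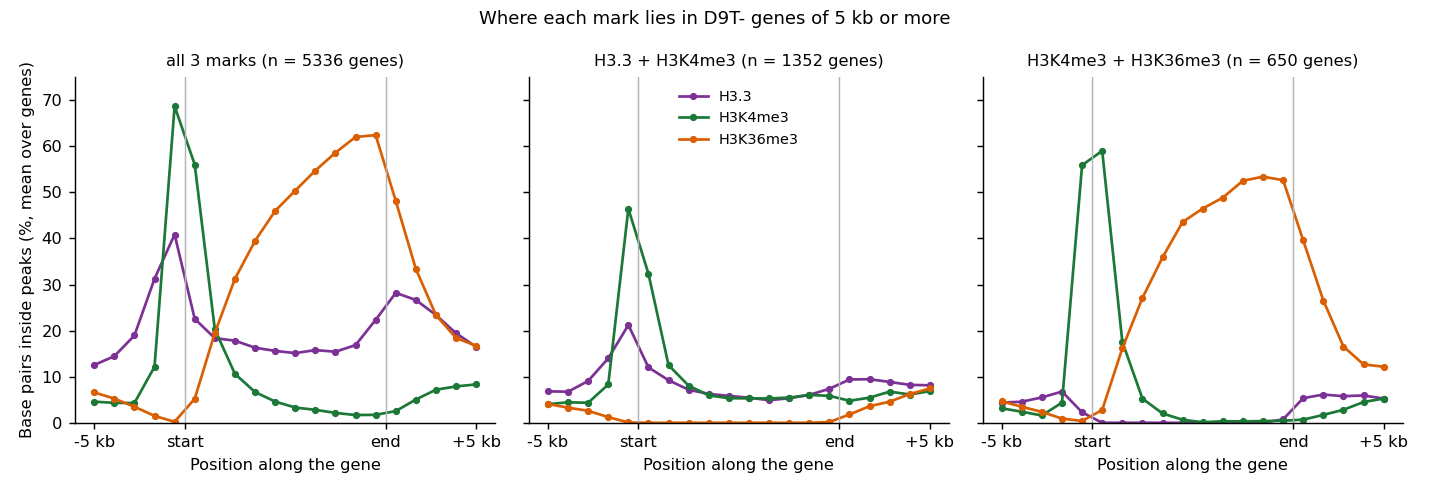
Mean share of base pairs inside peaks (y axis, percent) in 1 kb steps outside the gene and in 10 equal parts of the gene (x axis), D9T-, for genes of 5 kb or more with all 3 marks, with H3.3 and H3K4me3, and with H3K4me3 and H3K36me3. With all 3 marks, H3K4me3 was at 68.7% just before the start, H3K36me3 at 62.4% in the last part of the gene, and H3.3 at 40.9% before the start and 28.2% past the end.

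In these genes the last base under H3K4me3 lay at a median of 3.65 kb past the start and the first base under H3K36me3 at a median of 5.76 kb (quartiles 3.16 and 13.4 kb). H3K36me3 reached the last of the 10 parts in 85.4% of them. H3.3 began at the start in 58.3% and reached the last part in 50.0%, against 61.4% in D0. At the level of base pairs, 22.5% of the H3.3-covered sequence lay inside H3K4me3 peaks, which covered 2.12% of the genome, and 23.8% inside H3K36me3 peaks, which covered 6.31%. H3K4me3 and H3K36me3 hardly overlapped, with 3.50% of the H3K4me3 sequence inside H3K36me3 peaks. The share of H3K36me3 sequence inside H3.3 peaks was 13.6% in D9T- and 23.3% in D0, where the H3.3 peaks covered 4.90% of the genome against 3.62%.

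The longest peaks lay over long genes, homeobox genes and a noncoding locus. The longest H3K36me3 peaks lay over Ubr4 (chr4:138944318-139047601, 103 kb), Trrap (chr5:145531682-145622075, 90.4 kb) and Chd2 (chr7:80571708-80661886, 90.2 kb), all long genes. The longest H3K4me3 peaks lay over Hoxa7, Hoxa9 and Hoxa10 (chr6:52165235-52185405, 20.2 kb), at the start of the homeobox gene Meis2 (chr2:115881530-115898978, 17.4 kb) and inside the myosin gene Myo10 (chr15:25682436-25699861, 17.4 kb). The longest H3.3 peak (chr19:5803711-5856167, 52.5 kb) spanned the noncoding gene Neat1, which builds nuclear paraspeckles, and part of Frmd8. The next lay over Arid5b (34.7 kb) and over Rbm39 with its neighbours (34.0 kb). Arid5b, a chromatin regulator, had an H3.3 density of 3.85 in D0, 9.43 in D9T- and 3.23 in iPSCs, so that D9T- was the highest of the 3.

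The H3.3 peaks themselves were sorted by the mark they overlapped, and any overlap counted, however short. Of the 68309 H3.3 peaks, 31825 (46.6%) overlapped neither other mark, 17091 (25.02%) H3K4me3 only, 16432 (24.1%) H3K36me3 only and 2961 (4.33%) both. Peaks with both marks were long, with a median of 3.64 kb, and peaks with neither were short, at 0.642 kb. A longer peak has more room to touch another mark, so this order of lengths depends in part on the sorting. Of the peaks with neither mark, 43.8% were intergenic and 3.05% at a start, while 81.4% of those with H3K36me3 lay in a gene body. The score per kb was close, at a median of 13.0 for peaks with neither mark and 14.7 for peaks with H3K4me3 only.

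Sequence motifs were counted in 500 bp at the centre of each H3.3 peak and in windows 5 kb away without an H3.3 peak. The AP-1 motif TGANTCA, the site of the FOS-JUN factors that fibroblast enhancers use, was found in 19.2% of D9T- peaks with neither mark against 14.0% of windows away from them. The same share was 24.8% in D0 (13.6% away) and 15.3% in iPSCs (14.0% away), so that D9T- lay between the other stages. The octamer ATTTGCAT, the site of OCT4 and related POU factors, was found in 4.06% of D9T- peaks with neither mark (3.85 to 4.28%) against 3.02% away. In D0 the octamer was found in 2.88% of such peaks against 3.35% away, and in iPSCs in 3.92% against 3.45%. The SOX motif ACAATGG was found in 8.48% of D9T- peaks with neither mark against 7.31% away, and in 7.08% against 7.41% in D0 and 6.54% against 7.92% in iPSCs. Both strands were read, no motif overlaps another, and a match is a run of letters and not a bound site.

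**Figure D3:**
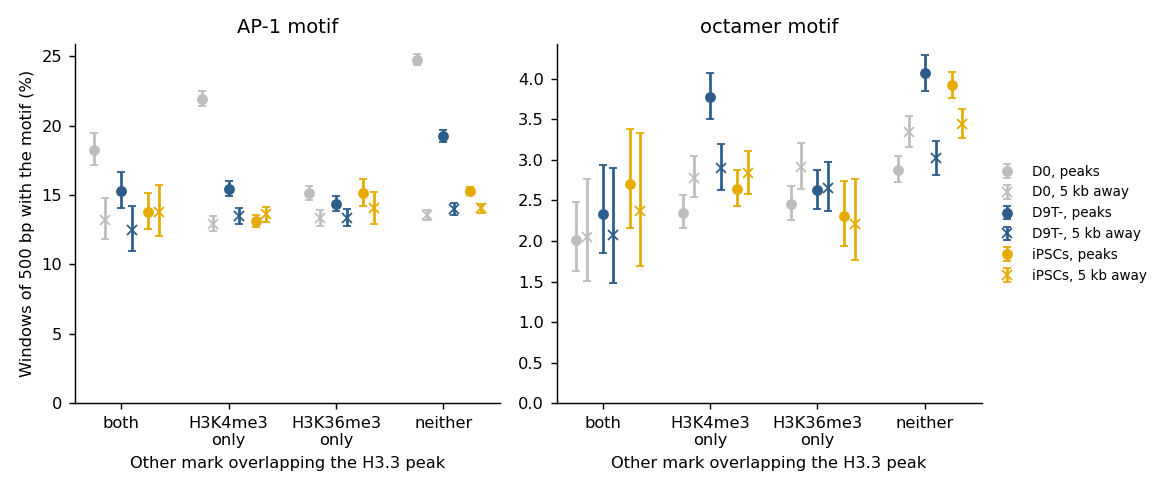
Share of 500 bp windows with the AP-1 motif (left) and the octamer (right), y axis in percent with 95% Wilson intervals, by the other mark that the H3.3 peak overlaps (x axis) and by stage, with circles for peaks and crosses for windows 5 kb away. In peaks with neither mark, the AP-1 share was 24.8% in D0, 19.2% in D9T- and 15.3% in iPSCs, and the octamer share 2.88%, 4.06% and 3.92%.

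The fibroblast matrix and contractile genes still carried marks in D9T-, at lower density than in D0. All 3 marks were found on 38 of 40 genes of the list in D0, 28 of 40 in D9T- (70.0%, 54.6 to 81.9%, against 41.1% of all genes) and 10 of 40 in iPSCs (against 30.4%). The background share for D0 was 42%. H3.3 with H3K4me3, whatever the H3K36me3, was found on 39, 30 and 18 of the 40, so that the difference from iPSCs was smaller without the weak iPSC list. The same pair was found on 12488, 11815 and 12251 of all 22367 genes. H3.3 was lower in D9T- than in D0 in 38 of 39 genes with a peak in either, H3K4me3 in 40 of 40 and H3K36me3 in 37 of 39. Over all genes these shares were 58.1%, 78.9% and 26.5%, so that H3K36me3 was lower for the list where it was mostly higher over all genes. The median H3.3 density of the list was 10.9 in D0, 0.872 in D9T- and 0.0172 in iPSCs, against 0.477, 0.278 and 0.329 over all genes. With the H3.3 fold limit of 4, all 3 marks were found on 18 of the 40 genes in D9T-, against 5556 of all 22367 genes at that limit.

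**Figure D4:**
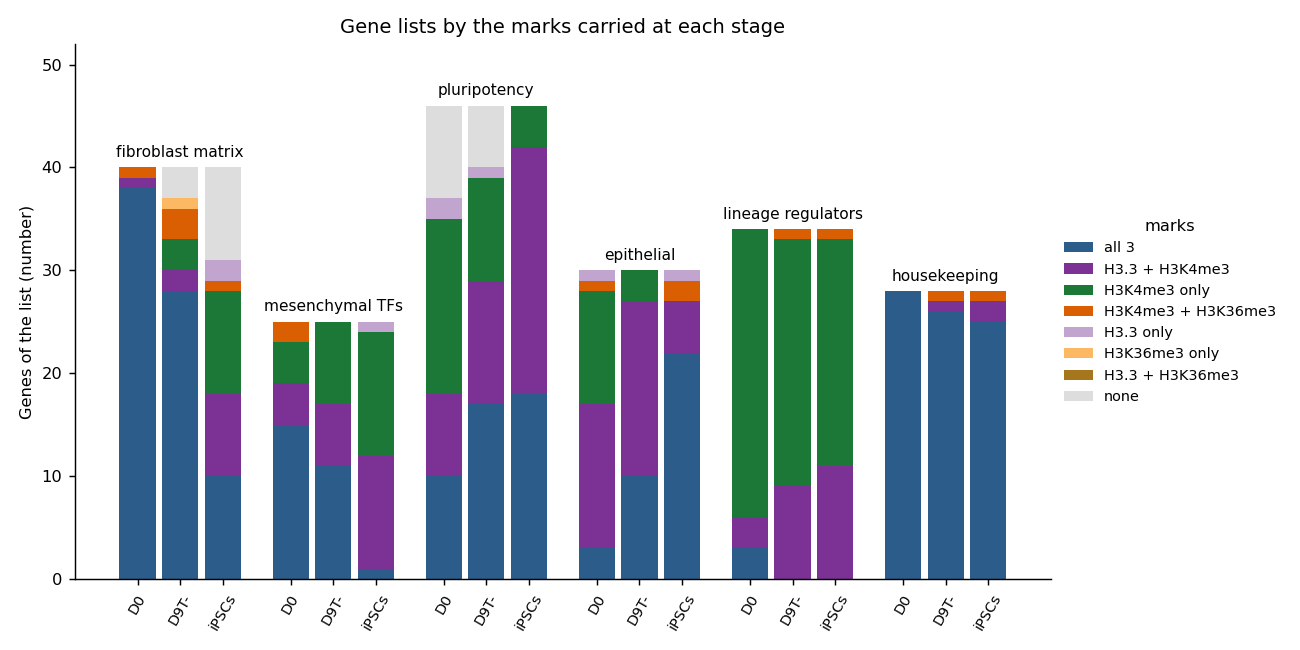
Number of genes of each list (y axis) by the marks carried (colours) in D0, D9T- and iPSCs (x axis), 1 library per mark and stage. All 3 marks were found on 38, 28 and 10 of 40 fibroblast matrix genes and on 3, 10 and 22 of 30 epithelial genes. The iPSC counts include the weak H3K36me3 list, and without that mark the counts were 39, 30 and 18 of 40 and 17, 27 and 27 of 30. Without that mark, the counts over all 22367 genes were 12488, 11815 and 12251.

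Thy1 (chr9:43851467-43856662), whose product the cells were sorted against, carried all 3 marks in D0 with H3K4me3 at 31.4, H3.3 at 8.61 and H3K36me3 at 3.65, and no peak of any mark in D9T-. The gene of the sorted protein was thus without marks in the cells labelled Thy-1-negative. Postn, the matrix protein periostin, and Lum, a small proteoglycan, were likewise without any mark in D9T-, and Postn had had an H3K36me3 density of 20.4 in D0. Col1a1 (chr11:94797538-94814356), the main chain of type I collagen, had H3.3 at 21.6 in D0, 1.74 in D9T- and 1.53 in iPSCs. Its H3K36me3 was 24.3, 4.26 and 0. Col1a2, the other chain of type I collagen, had no H3.3 peak in D9T- against 16.7 in D0, and an H3K36me3 density of 4.05 against 35.6. The pair thus differed in H3.3 in D9T- while both carried H3K4me3 and H3K36me3.

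Col3a1 (chr1:45368383-45406551), the chain of type III collagen, had H3.3 at 12.0, 1.79 and 0 in D0, D9T- and iPSCs, H3K4me3 at 8.87, 2.12 and 0, and H3K36me3 at 33.8, 9.60 and 0. All 3 marks were intermediate in D9T-. Fn1 (chr1:71632094-71699774), or fibronectin, had H3.3 at 15.6, 4.16 and 3.96, with D9T- near iPSCs. Its H3K4me3 was 5.53, 5.47 and 3.46 and its H3K36me3 36.02, 27.4 and 0.723, with D9T- nearer to D0. Vim, the intermediate filament vimentin, had H3.3 at 19.2 in D0, 22.7 in D9T- and 1.39 in iPSCs, so that its D9T- level was close to D0. Pdgfra, a receptor of fibroblasts, had H3K36me3 at 28.9 in D0 and 0.281 in D9T-. The genes of the list thus differed widely in how near D9T- was to D0.

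Regulators of the mesenchymal state still carried H3K4me3 in D9T-, with or without the other marks. Of 25 such genes, 15 carried all 3 marks in D0, 11 in D9T- and 1 in iPSCs. The D9T- share of 44.0% was near the 41.1% of all genes. H3.3 with H3K4me3, whatever the H3K36me3, was found on 19, 17 and 12, against 12488, 11815 and 12251 of all 22367 genes. H3K4me3 was found on 25, 25 and 24, against 67.6% of all genes in D9T-. Twist1, a driver of the mesenchymal state, had H3K4me3 at 66.0, 34.8 and 18.7 and H3.3 at 5.53, 2.75 and 0, with no H3K36me3 at any stage. Prrx1 (chr1:165175247-165243841), a limb and fibroblast homeobox factor, had H3.3 at 10.8, 4.87 and 0 and H3K36me3 at 14.8, 6.96 and 0. Zeb2, a repressor of epithelial genes, had H3.3 at 1.97, 1.72 and 0.116 and H3K36me3 at 7.42, 3.69 and 0. Each of these was at its lowest in iPSCs. H3K4me3 was higher in D9T- than in iPSCs in 85.7% of all genes with a peak at either stage. Twist2 had H3.3 at 14.0, 0.117 and 0, while its H3K36me3 was 1.61, 2.76 and 0, so that H3.3 was lower and H3K36me3 higher in D9T- than in D0. Snai2, another regulator of that state, had H3K36me3 at 7.56, 0 and 0 and H3K4me3 at 68.5, 25.01 and 8.21. Zeb1, a relative of Zeb2, had H3.3 at 2.77, 0.283 and 0 and carried all 3 marks in D9T-.

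Genes of TGF-beta signalling, which sustains the mesenchymal state, carried all 3 marks in 17 of 18 cases in D0 (94.4%), 10 in D9T- (55.6%) and 7 in iPSCs (38.9%), against 42%, 41.1% and 30.4% of all genes, with the weak H3K36me3 list in the iPSC count. The receptors Tgfbr1, Tgfbr2 and Tgfbr3 and the transducers Smad2, Smad3, Smad4 and Smad7 carried all 3 in D9T-. The ligand Tgfb1 carried H3.3 and H3K4me3 without H3K36me3, and the ligand subunit Inhba carried H3K4me3 only. AP-1 genes carried all 3 marks in 5 of 12 cases in D0 (41.7%), 7 in D9T- (58.3%) and 6 in iPSCs (50.0%), the D0 share being near that of all genes. Among them were Fos, Fosl1, Fosl2 and Mafk, which carried all 3 at every stage.

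Pluripotency genes in D9T- ranged from no mark to all 3. Of 46 such genes, all 3 marks were found on 17 in D9T- (37.0%, 24.5 to 51.4%, near the 41.1% of all genes). They were found on 10 in D0 (21.7%, against 42% of all genes) and 18 in iPSCs (39.1%, against 30.4%). H3.3 was found on 20, 30 and 42 of them (43.5%, 65.2% and 91.3%), against 59.2%, 55.5% and 58.6% of all genes. H3K4me3 was found on 35, 39 and 46 (76.1%, 84.8% and 100%), against 69.3%, 67.6% and 68.1%. H3.3 was higher in D9T- than in D0 in 27 of 34 genes with a peak in either, against 41.9% of all genes, and H3K4me3 in 25 of 40 against 21.1%. It was lower than in iPSCs in 36 of 45 for H3.3, against 47.2% of all genes, and in 32 of 46 for H3K4me3, against 14.3%. The list was therefore above D0 and below iPSCs more often than genes at large for both marks.

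Of the 46 genes in D9T-, 17 carried all 3 marks, 12 carried H3.3 and H3K4me3 without H3K36me3, 10 H3K4me3 only, 1 H3.3 only and 6 no mark. H3.3 with H3K4me3, whatever the H3K36me3, was found on 18 in D0, 29 in D9T- and 42 in iPSCs. Over all 22367 genes the same counts were 12488, 11815 and 12251. Genes such as Zfp42 (Rex1), Dppa2, Dppa4, Tex19.1 and Tcl1 had no mark in D9T- or D0. Zfp42 (chr8:44380422-44392363) had peak scores of 0 at both stages and densities of 6.27 for H3.3 and 13.6 for H3K4me3 in iPSCs. Nanog (chr6:122657507-122664651) and Tdgf1, which encodes the NODAL co-receptor Cripto, carried H3K4me3 only. Nanog had H3K4me3 at 0, 8.31 and 26.9 in D0, D9T- and iPSCs and H3.3 at 0, 0 and 14.3. Tdgf1 had H3K4me3 at 0, 4.97 and 30.3 and H3.3 at 0, 0 and 10.2. In both genes a H3K4me3 peak was called in D9T- and no H3.3 peak.

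Sall4 (chr2:168573832-168593443), a zinc-finger partner of OCT4, already carried all 3 marks, with H3.3 at 0, 4.95 and 9.73, H3K4me3 at 5.57, 19.5 and 23.7, and H3K36me3 at 0, 2.94 and 2.74. L1td1, an RNA-binding protein of pluripotent cells, had H3.3 at 0, 8.67 and 9.77 and H3K36me3 at 0, 15.3 and 0.727. The H3.3 level of these 2 genes in D9T- was thus between D0 and iPSCs, while their H3K36me3 in iPSCs came from the weak list. Gdf3, a TGF-beta family ligand, had no peak in D0 and H3.3 at 12.3 in D9T- against 6.24 in iPSCs. Fgf4, a growth factor gene of the early embryo, had H3.3 at 0, 9.32 and 7.29. For Gdf3 and Fgf4 the D9T- value was the highest of the 3 stages.

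The other named pluripotency genes had H3.3 well below the iPSC level in D9T-. Esrrb, a nuclear receptor of naive pluripotency, had H3.3 at 0.154, 0 and 3.37 and H3K4me3 at 0.866, 0.555 and 4.13. Lin28a, which blocks let-7 maturation, had H3.3 at 0, 1.03 and 10.9. Utf1 had H3K4me3 at 28.4, 10.3 and 20.3, so that D9T- was the lowest. Tet1, a DNA demethylase, carried all 3 marks at each stage with H3.3 at 1.06, 1.73 and 9.81. Dnmt3l, a cofactor of DNA methylation, had H3.3 at 0.507, 0.375 and 6.33 and no H3K4me3 peak in D9T-. Dppa5a had an H3.3 density of 9.34 in D0 and 0.238 in D9T-, and H3K4me3 at 22.4 in iPSCs alone.

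**Figure D5:**
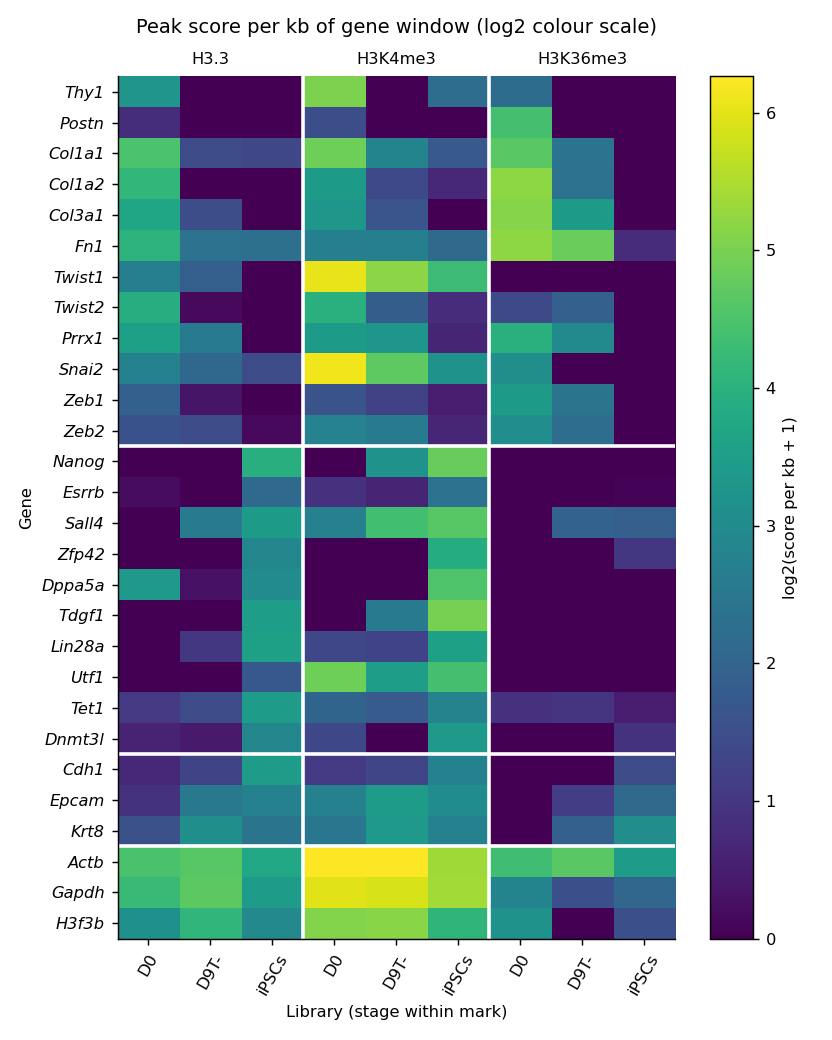
Peak score per kb of gene window on a log2(value + 1) colour scale for the named genes (rows) in the D0, D9T- and iPSC libraries of each mark (columns). Thy1 is at 0 for every mark in D9T-, Nanog has H3K4me3 at 8.31 and H3.3 at 0 there, and Epcam has H3.3 at 4.76 against 0.899 in D0.

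Epithelial genes, which are switched on when fibroblasts turn into compact colonies, carried H3.3 in most cases in D9T-, at lower density than in iPSCs. All 3 marks were found on 3 of 30 genes in D0 (10.0%, against 42% of all genes). They were found on 10 in D9T- (33.3%, 19.2 to 51.2%, against 41.1% of all genes) and 22 in iPSCs (73.3%, against 30.4%). H3.3 was found on 18, 27 and 28 of them, or 90.0% in D9T- against 55.5% of all genes. It was higher in D9T- than in D0 in 23 of 27 genes, against 41.9% of all genes, and lower than in iPSCs in 20 of 30, against 47.2%. The median H3.3 density of the list was 0.399 in D0, 1.33 in D9T- and 3.05 in iPSCs. Epcam (chr17:88035319-88050446), an epithelial adhesion molecule, had H3.3 at 0.899, 4.76 and 5.78, H3K4me3 at 5.75, 10.0 and 7.31, and H3K36me3 at 0, 1.22 and 3.48. Krt8, a simple epithelial keratin, had H3.3 at 1.91, 7.71 and 4.29 and H3K36me3 at 0, 2.77 and 7.52. Dsp, the desmosome protein desmoplakin, had H3K36me3 at 0, 16.7 and 2.10. Cdh1 (chr8:109127251-109194146), or E-cadherin, had H3.3 at 0.629, 1.45 and 9.76 and H3K36me3 at 0, 0 and 1.72.

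Marks of the fibroblast and of the pluripotency and epithelial programs were found in the same population, which does not say that they lay in the same cells. All 3 marks were carried in D0 and D9T- and not in iPSCs by 2418 genes (10.8% of all genes), and in D9T- and iPSCs and not in D0 by 362 (1.62%). The last count was 651 with equal peak numbers at the 3 stages and 178 with an H3.3 fold of at least 4. A further 5577 genes carried all 3 at each stage, or 60.6% of the D9T- genes with all 3, and 845 carried all 3 in D9T- alone. The first set held 28 of the 65 fibroblast and mesenchymal genes (43.1%), 2 of the 46 pluripotency genes (Etv5 and Fbxo15) and 0 of the 30 epithelial genes. The other set held 0 of the 65 fibroblast and mesenchymal genes, 5 of the 46 pluripotency genes (Sall4, Mybl2, L1td1, Dnmt3b and Slc2a3) and 7 of the 30 epithelial genes (Epcam, Krt8, Dsp, St14, Cgn, Marveld2 and Spint2).

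The split rested in part on the weak H3K36me3 list of the iPSCs. In iPSCs, 79.5% of the 2418 genes carried H3.3 and 97.3% H3K4me3, while 7.90% carried H3K36me3. With H3.3 and H3K4me3 alone, 1059 genes were shared by D0 and D9T- and not by iPSCs, 758 by D9T- and iPSCs and not by D0, and 9542 by all 3 stages. Of genes with all 3 marks in D0, 85.1% carried all 3 in D9T- (7995 genes), and 6.72% (631 genes) had H3K4me3 and H3K36me3 without H3.3. The 979 genes with all 3 marks in D0 alone included Col1a2, Postn, Lox and Fap of the fibroblast genes and Thy1.

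Within the first set the highest H3.3 densities in D9T- were those of Rpl3, Eif5a, Eef2, Eif1 and Tuba1b, genes of translation and of the cytoskeleton, at 32.8, 26.2, 23.9, 23.5 and 23.4. In iPSCs these 5 genes still had H3.3 at 11.7 to 16.1 and H3K36me3 at 0 to 0.932, so that H3K36me3 was the mark they did not carry there. Within the other set the highest were Prr13, Tgif2, Rdm1, Fam100b and Ctdsp1, at 21.8, 14.2, 12.5, 12.4 and 12.2. All 5 had H3.3 and H3K4me3 in D0 with no H3K36me3 peak there, and H3K36me3 at 1.51 to 8.87 in D9T-. Tgif2 is a repressor of TGF-beta signalling. The genes at the top of both sets thus differed between the stages in H3K36me3, and carried H3.3 and H3K4me3 at all 3.

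Housekeeping genes mostly carried all 3 marks at each stage. They were found together on 28 of 28 such genes in D0, 26 in D9T- (92.9%) and 25 in iPSCs (89.3%), against 42%, 41.1% and 30.4% of all genes. Actb (beta-actin) had H3.3 at 21.0, 23.9 and 12.5, and Gapdh, a glycolytic enzyme, at 17.5, 24.5 and 9.84. The iPSC values were the lowest for both genes, with an iPSC H3.3 library that had 14.0% of its tags in peaks. Genes for the writers and erasers of these marks and the chaperones of H3.3 carried all 3 in 33, 34 (94.4%) and 33 of 36 cases. Hira and Daxx, the H3.3 chaperones, had H3.3 at 1.498 and 13.0 in D9T-, and Setd2, the H3K36 methyltransferase, had H3K36me3 at 17.9. H3f3b, which itself encodes H3.3, had H3.3 at 7.80, 16.5 and 6.66 and no H3K36me3 peak in D9T-.

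Regulators of other lineages mostly carried H3K4me3 only. Of 34 such genes, this was so for 28 in D0, 24 in D9T- and 22 in iPSCs, against 9.91%, 9.93% and 11.6% of all genes. All 3 marks were found on 3, 0 and 0, against 42%, 41.1% and 30.4% of all genes. Gata6 carried H3K4me3 and H3K36me3 without H3.3 in D9T-. H3.3 was found with H3K4me3 and without H3K36me3 on 9 of them in D9T-, against 11.7% of all genes. Pax6, Foxa1 and Eomes were among these 9. Germ-cell genes carried no mark in 9, 10 and 2 of 15 cases, against 26.4%, 28.2% and 27.7% of all genes. They carried all 3 marks in 0, 0 and 1, against 42%, 41.1% and 30.4% of all genes. Surface molecules used to follow reprogramming carried all 3 in 5, 6 and 4 of 10 cases, against the same shares of all genes. Icam1, which is found on cells late in reprogramming, had H3.3 at 0, 1.25 and 6.74, and Cd44, a fibroblast surface receptor, at 15.0, 8.54 and 0.0611, with D9T- in between for both.

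Markers of other cell types carried marks in part. Of 11 macrophage genes, 5 carried H3.3 in D9T- (45.5%) against 55.5% of all genes, and all 3 marks were found on 1, 2 and 1 in D0, D9T- and iPSCs, and the summed H3.3 score was 260, 107 and 163. Csf1r and Cd68 carried all 3 marks in D9T-, while Cx3cr1, Emr1, Lyz2, Tyrobp and Aif1 carried no mark. Of 12 endothelial genes, 7 carried H3.3 in D9T- (58.3%) and 8 carried H3K4me3 (66.7%), near the shares of all genes, and all 3 were found on 1, 2 and 2, with summed H3.3 scores of 458, 560 and 513, and Cdh5, Tie1 and Robo4 were the 3 without a mark in D9T-. The endothelial receptor gene Tek carried all 3 in D9T- with H3.3 at 1.48 against 0.208 in D0 and 0.163 in iPSCs. Of 10 skeletal muscle genes, 3 carried H3.3 in D9T- (30%, against 55.5% of all genes) and 0 carried all 3 at any stage. The summed H3.3 scores were 88.1, 37.5 and 99.1. In D9T-, 5 of the 10 muscle genes carried H3K4me3 and 5, among them Myod1, Myog and Des, carried no mark. Of 9 neural crest and glial genes, 5 carried H3.3 in D9T- (55.6%), among them Erbb3, Mitf and Pmel, and all 3 were found on 2, 1 and 2, with summed H3.3 scores of 270, 94.8 and 215, and Sox10 and Tyr were the 2 without a mark in D9T-. For comparison, all 3 marks were found on 42%, 41.1% and 30.4% of all genes in D0, D9T- and iPSCs. The part of cells of these other types in the results above was not tested.

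The delivered factors could not be read as endogenous genes. Tags of the retroviral cDNA cannot be told apart from those of the gene itself. Per the paper, the Oct4 reporter is a GFP cassette that follows the Oct4 stop codon. Whether the reporter adds tags was not tested. Pou5f1 (Oct4, chr17:35642982-35647721) had no peak of any mark in D0, H3.3 at 25.2 and H3K36me3 at 26.97 without H3K4me3 in D9T-, and H3.3 at 266 with H3K4me3 at 430 in iPSCs. The input tags under its H3.3 peak had 21.5 times the median density of the library in D9T- and 28.2 times in iPSCs. Sox2 had H3.3 at 3.15, 8.10 and 10.4, Klf4 at 1.52, 14.6 and 7.33, and Myc at 10.5, 10.6 and 7.76. Their input densities in D9T- were 1.73, 1.57 and 1.71 times the median, against 0.957, 0.929 and 1.31 in D0 and 1.41 at Actb in D9T-.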

How the data were processed

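H3.3, H3K4me3 and H3K36me3 ChIP-Seq libraries of D9T- cells were read from the deposited peak lists, with those of D0 and iPSCs beside them. Per the study's methods and the file headers, the authors mapped reads to mm9 with STAR, removed reads with more than 2 mismatches or more than 1 locus, and called peaks with HOMER in histone style against 1 input per stage (versions not given in the sources used here). The score is a signal, the normalized tag count that the authors scaled to 10 M tags. Enrichment over input was deposited as a ratio of scaled tags (at least 2 for H3.3, 4 otherwise), and the p-value over input was set by the authors at a Poisson limit of 0.0001 and is not adjusted. The labels do not say whether the libraries of the 3 marks came from separate cultures.

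Here, 198 of 153402 D9T- peaks on unplaced sequence were left out. Peaks were set on 22367 genes of GENCODE vM1 (mm9) with numpy 2.4.6 and pandas 2.3.3 in python 3.11.15, and scores were divided among windows by overlap. On simulated data 100% of 2000 planted combinations were recovered. Comparison windows for motifs were 500 bp long, 5 kb to alternating sides. Of 343 entries in 17 gene lists, 340 were found by symbol. The members, lists and printed sequences were chosen with earlier results of these data known. Genes were named from a fixed set in the lists, as the 3 leading genes of each combination (2 kb or longer, window alone, by the lowest rank among carried marks), as the 5 with the highest H3.3 in each transition set, and at the 3 longest peaks. Others were named after their values were seen. Alternatives were equal peak numbers, an H3.3 fold of 4, the nearest start site, a 1 bp overlap, genes alone in their window, peaks above the median score and a 2500 bp start window.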

Additional observations from a re-analysis of the deposited data

Results flagged for a closer look

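At the delivered factors the input library itself stood above its median. Its tags were the common control of all 3 peak lists. The input density over the library median at the H3.3 peaks of D9T- was 21.5 for Pou5f1, 1.73 for Sox2 and 1.57 for Klf4. In D0, Sox2 was at 0.957 and Klf4 at 0.929, and Pou5f1 had no H3.3 peak. Actb, which was not delivered, stood at 1.41 in D9T- and 1.11 in D0, so that Sox2 and Klf4 in D9T- were nearer to it than to Pou5f1.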

How the results depend on the processing

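Of 103 alternative values over 20 results, 60 stayed within 1.5 times the main count or its interval, and the rest are given here. For shares of base pairs, the interval was computed as if each peak were an independent unit. It measures no spread there and served only to sort those values. Any overlap of 1 bp moved none of the counts. With equal peak numbers, H3K4me3 and H3K36me3 without H3.3 came to 2026 genes, H3.3 with H3K36me3 to 118, H3.3 only to 230 and the D9T- and iPSC set to 651. With an H3.3 fold of at least 4, the counts were 5556 for all 3 marks, 1013 for H3.3 with H3K4me3, 4738 for H3K4me3 with H3K36me3, 93 for H3.3 with H3K36me3, 111 for H3.3 only, 3820 for H3K4me3 only, 18 for fibroblast genes and 178 for the D9T- and iPSC set. With the nearest start site, H3.3 with H3K36me3 came to 792, H3.3 only to 656 and H3K36me3 only to 521. Among the 15745 genes alone in their window, which are fewer by construction, the counts were 5582 for all 3, 1724 for H3.3 with H3K4me3, 707 for H3K4me3 with H3K36me3, 93 for H3.3 with H3K36me3, 171 for H3K36me3 only, 5 epithelial genes, 1494 in the D0 and D9T- set and 228 in the D9T- and iPSC set. With peaks at or above the median score, H3K4me3 with H3K36me3 came to 1817 and epithelial genes to 6. With H3.3 and H3K4me3 alone, added after the data were seen, the sets held 1059 and 758 genes.

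The share of H3.3 base pairs inside H3K4me3 was 25.2% with equal peak numbers, 23.7% with a fold of 4 and 19.7% above the median score. Inside H3K36me3 it was 22.7%, 29.95% and 21.8%, and the H3K4me3 share inside H3K36me3 was 3.22% with equal numbers and 2.41% above the median. The start-site share of H3.3 was 53.0% with equal numbers, 52.7% for genes alone, 53.0% above the median and 71.7% in the 2500 bp window. For H3K36me3 it was 1.23% for genes alone and 14.7% in the wider window, and for H3K4me3 92.9% above the median and 92.4% in the wider window. The cause of these shifts was not tested beyond the construction of each alternative. No paired analysis was possible because each mark and stage had 1 library and no test was made. With 1 library per mark and stage, depth and enrichment limit any call of a missing mark, most of all for the iPSC H3K36me3 list.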
